A study of Homo sapiens with 12 samples.

Results

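Granins and the proteins that convert prohormones were followed through 10 genes, chosen by symbol, of the 58735 in the deposited table: the granin genes CHGA, CHGB, SCG2, SCG3 and VGF, the convertase genes PCSK1 and PCSK2, the genes of their partners PCSK1N and SCG5, and the carboxypeptidase gene CPE. Each symbol matched 1 row. RNA had been sequenced in 12 libraries of 2 established human lines of neuroblastoma, a childhood tumour of the sympathetic lineage, in a study of TSPYL5 and the stem-cell properties of such cells. The first line is SK-N-SH in all labels. The second, SK_N_BE2 by its sample titles and SH-SY5Y by the remaining labels, is written as the second line.

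There were 4 groups of 3 libraries. SK-N-SH shL5 and second line shL5 have the genotype label TSPYL5 knockdown, and by their labels they carry a hairpin RNA against that gene. SK-N-SH shNC and second line shNC have the genotype label WT and are the controls. No group has a drug treatment in its labels, and the same hairpin label, shL5, stands for the knockdown in both lines. The sources used here give neither whether a culture was a clone or a pool nor whether replicates were separate cultures. The p-values therefore measure the spread between libraries alone, which may be technical.

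Granins are acidic proteins of the dense-core granules in which endocrine and sympathetic cells store peptides and catecholamines. In these granules the prohormone convertases cut precursors after pairs of basic residues, and carboxypeptidase E then trims the exposed residues to leave the peptide. Granins are themselves cut into peptides, help to form and load the granule, and serve as markers of neuroendocrine cells, neuroblastoma included.

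The target gene did not follow its label in SK-N-SH. TSPYL5 stood at 17.1, 18.3 and 17.8 FPKM (fragments scaled for gene length and library depth) in SK-N-SH shL5, against 13.1, 13.4 and 12.2 FPKM in SK-N-SH shNC. In the second line it stood at 13.3, 12.4 and 12.6 FPKM in shL5, against 24.0, 24.4 and 25.8 FPKM in shNC. MYCN had 988 to 1082 FPKM in SK-N-SH shL5 and at most 0.0813 FPKM in SK-N-SH shNC, but 0 reads in second line shL5 and 1006 to 1072 FPKM in second line shNC. Across the 15856 genes tested, libraries correlated (Pearson's r of log2(FPKM + 1)) at 0.986 to 0.987 between SK-N-SH shL5 and second line shNC libraries, 0.960 to 0.975 between second line shL5 and SK-N-SH shNC, and 0.692 to 0.724 between shL5 and shNC libraries of the same labelled line. Every direction below is therefore a direction by label: it sets the libraries labelled knockdown against those labelled control, and the part of the hairpin cannot be told apart from that of the label conflict. The libraries held 15425460 to 19249018 reads.

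Promoter windows are shown because 3 of the genes searched share a cyclic AMP response element close to their start, a motif bound by CREB-family factors. RefSeq windows (GRCh38.p14, 250 bases before the start to 50 after) were found for 8 of the 10 genes. CHGB and SCG2 had no window in the source used, so whether they hold the element is not known here. The motifs were picked after these windows had been read. The letters TGACGTCA, which read the same on both strands, occurred in the windows of CHGA, PCSK1 and VGF and in 1.85% of all 35116 windows. They begin 54 bases upstream of the CHGA start, 77 bases upstream of a PCSK1 start and 79 bases upstream of the VGF start. Each is shown on its gene's strand with the motif in capitals, and the CHGA stretch lies in an exon of that gene in GENCODE.
CHGA, chr14:92923085-92923114, plus strand: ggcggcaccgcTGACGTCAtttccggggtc
PCSK1, chr5:96433307-96433336, minus strand: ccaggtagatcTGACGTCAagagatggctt
VGF, chr7:101165630-101165659, minus strand: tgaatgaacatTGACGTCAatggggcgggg

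The VGF window also held an E-box, CACGTG, beginning 54 bases upstream of the start, a motif found in 7.26% of windows, searched on both strands. The 150 bases of VGF are given because they hold both motifs, in capitals.
VGF, chr7:101165594-101165743, minus strand: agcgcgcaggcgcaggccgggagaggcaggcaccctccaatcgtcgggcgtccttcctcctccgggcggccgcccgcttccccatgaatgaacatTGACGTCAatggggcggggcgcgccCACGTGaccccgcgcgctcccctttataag

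SCG3 held both parts of an RE1 motif, the element read by the neuronal repressor REST, inside a GENCODE exon from 8 bases after the start. The parts searched, on both strands, were TTCAGCACC and GGACAGCG, on the same strand and up to 15 bases apart. They were 8 bases apart in SCG3, and 6 of the 35116 windows (0.0171%) held such a pair. Capitals mark the parts.
SCG3, chr15:51681509-51681538, plus strand: acTTCAGCACCcacagggcGGACAGCGctc
A match describes the letters, not binding. Among the genes found with the cyclic AMP response element (CHGB and SCG2 were not searched), the levels below show PCSK1, on few reads, with the direction of CHGA in both lines. VGF had the opposite direction in both. Whether the element plays a part in these directions was not tested.

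The 8 tested genes fell into 2 sets by direction. CHGA, CHGB, SCG3, SCG5 and PCSK1N were higher in SK-N-SH shL5 than in SK-N-SH shNC, and SCG2, CPE and VGF were lower. In the second line CHGA, CHGB, SCG3, SCG5 and PCSK1N were lower in shL5 than in shNC, and SCG2, CPE and VGF were higher. These calls are from limma on log2(FPKM + 1) with Benjamini-Hochberg adjustment at 0.05, over the 15856 genes with a mean of at least 0.5 FPKM. PCSK1 and PCSK2 did not reach that mean, so 8 of the 10 genes were tested. In SK-N-SH 5 of 8 were called higher, where 40.7% of all genes tested were, and 3 of 8 lower, where 39.0% were. In the second line 3 of 8 were called higher, where 39.9% of all genes were, and 5 of 8 lower, where 40.2% were. A call in either direction went to 79.8% of genes in SK-N-SH and 80.0% in the second line, so being called does not set these genes apart. The median log2 fold was 1.94 over the 8 genes and 0.02 over all genes in SK-N-SH, and -1.65 and -0.02 in the second line. The difference between the lines' log2 folds (second line minus SK-N-SH) passed for all 8, as for 84.9% of all genes. It was positive for 3, where 41.8% of all genes were called positive, and negative for 5, where 43.1% were. Libraries of shL5 and shNC did not overlap for any of the 8 in either line, as for 41.6% (higher) and 39.9% (lower) of all genes in SK-N-SH and 40.5% and 40.8% in the second line.

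**Figure D1:**
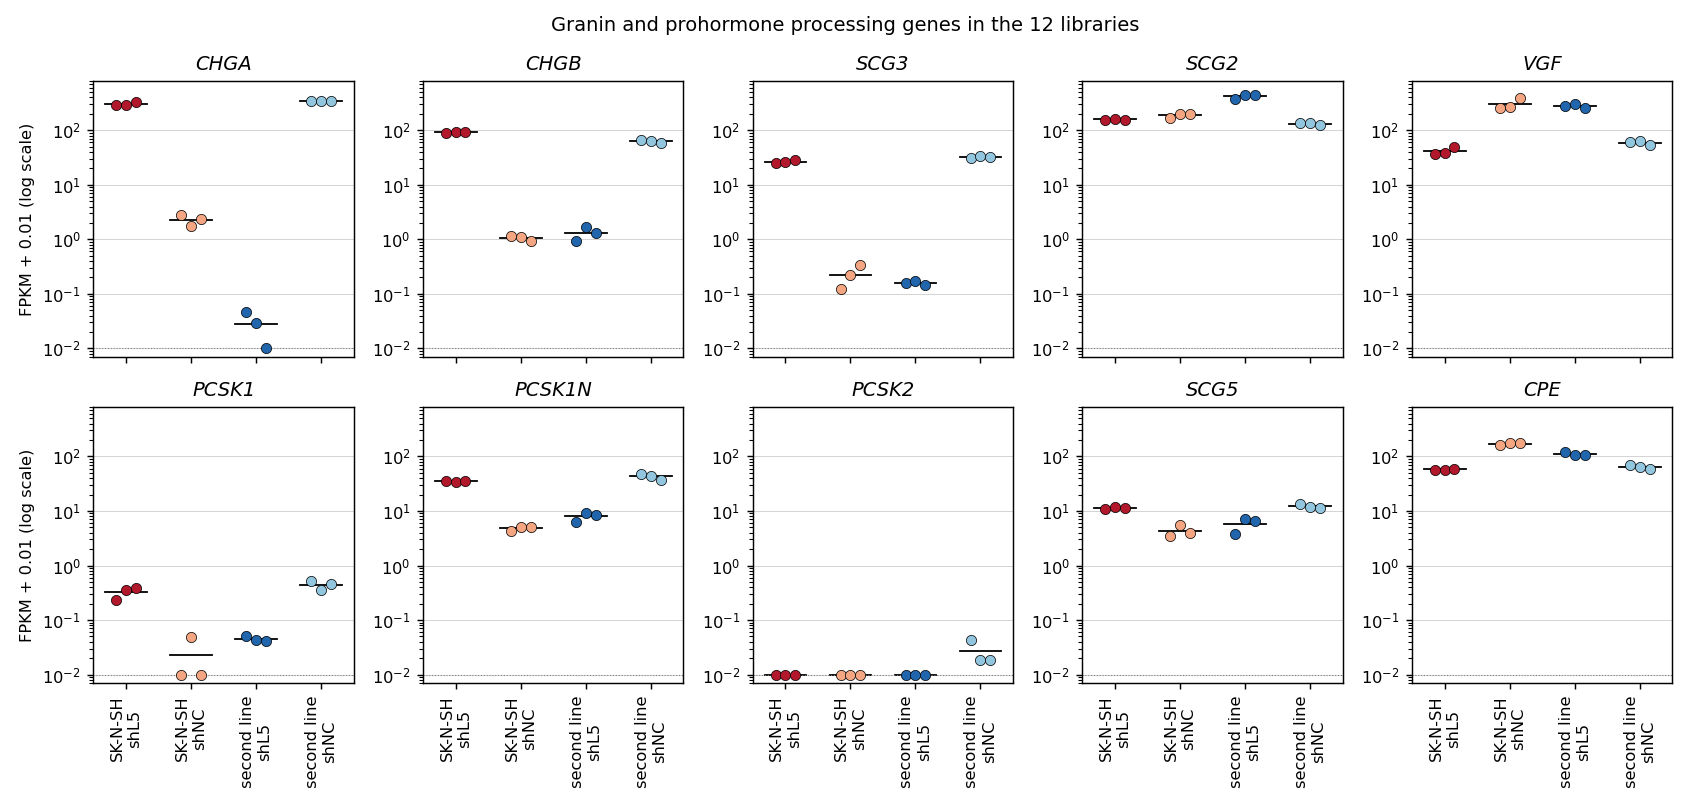
FPKM plus 0.01 on a log scale for the 10 genes, with a point for each of the 12 libraries and a line at the mean of each group of 3. CHGA, CHGB, SCG3, PCSK1N, SCG5 and PCSK1 are high in SK-N-SH shL5 and second line shNC, VGF and CPE are high in the other groups, and PCSK2 lies at 0 (the dotted line) outside second line shNC.

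CHGA encodes chromogranin A, the most widely used tissue and blood marker of neuroendocrine tumours and the precursor of peptides such as vasostatin and catestatin (ENSG00000100604, GRCh38 chromosome 14, 92923080 to 92935293, plus strand). It stood at 293, 291 and 325 FPKM in SK-N-SH shL5, against 2.82, 1.74 and 2.31 FPKM in SK-N-SH shNC. All 3 shL5 libraries lay far above all 3 controls. The ratio of means was 132, and the log2 fold was 6.54 (SE 0.10, limma adjusted p = 1.23e-13). Second line shL5 had 0.0358, 0.0191 and 0 FPKM of CHGA, against 347, 341 and 338 FPKM in second line shNC. The shL5 libraries together held 3 reads of CHGA, against 53826 in shNC. The ratio of control over knockdown was 18700 with a counting interval of 6399 to 90682 at 95%, and 35847 without second line shL5 replicate 1 (log2 fold -8.40, SE 0.10, adjusted p = 1.63e-14). Intervals and floors on reads cover counting error only.

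CHGB encodes chromogranin B (secretogranin-1), a relative of chromogranin A in the same granules (ENSG00000089199, chromosome 20, 5911430 to 5925361, plus strand). It had 88.5, 92.8 and 93.7 FPKM in SK-N-SH shL5, against 1.14, 1.10 and 0.908 FPKM in SK-N-SH shNC. Its levels were 0.905, 1.67 and 1.28 FPKM in second line shL5, against 65.1, 64.9 and 59.2 FPKM in second line shNC. The groups did not overlap in either line. CHGB was 87.6-fold higher in SK-N-SH shL5 (log2 fold 5.50, SE 0.10, limma adjusted p = 8.07e-13) and 49.1-fold lower in second line shL5 (log2 fold -4.82, SE 0.10, adjusted p = 2.22e-12).

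SCG3 encodes secretogranin III, which binds cholesterol in the granule membrane and holds chromogranin A there (ENSG00000104112, chromosome 15, 51681353 to 51721031, plus strand). It had 25.1, 26.6 and 28.1 FPKM in SK-N-SH shL5, against 0.113, 0.207 and 0.323 FPKM in SK-N-SH shNC. Second line shL5 had 0.151, 0.161 and 0.135 FPKM in shL5, against 31.5, 33.7 and 31.9 FPKM in shNC. All 6 libraries of the high groups lay far above all 6 of the low groups. SCG3 was 124-fold higher in SK-N-SH shL5 (log2 fold 4.51, SE 0.07, limma adjusted p = 1.11e-13) and 218-fold lower in second line shL5 (log2 fold -4.86, SE 0.07, adjusted p = 5.65e-14).

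SCG2 encodes secretogranin II, the precursor of the neuropeptide secretoneurin (ENSG00000171951, chromosome 2, 223596940 to 223602503, minus strand). It was high in all 12 libraries. It had 157, 164 and 157 FPKM in SK-N-SH shL5, against 171, 199 and 200.1 FPKM in SK-N-SH shNC, which lay above all 3. That fall was small, 1.19-fold (log2 fold -0.25, SE 0.08, limma adjusted p = 0.0177). It was lost with quantile normalization (adjusted p = 0.0796) and without SK-N-SH shNC replicate 2 (0.0646) or replicate 3 (0.0663), over a range of 0.00483 to 0.0796 in all alternatives. Second line SCG2 stood at 377, 452 and 453 FPKM in shL5, against 136, 138 and 124 FPKM in shNC. It was 3.23-fold higher in second line shL5 (log2 fold 1.68, SE 0.08, adjusted p = 4.37e-09). The 453 FPKM of replicate 3 was the highest level of any of the 10 genes in any library.

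VGF encodes a granin-like protein of neurons and endocrine cells that is cut into several active peptides, TLQP-21 among them (ENSG00000128564, chromosome 7, 101162509 to 101165593, minus strand). It had 37.3, 38.9 and 48.6 FPKM in SK-N-SH shL5, against 255, 264 and 384 FPKM in SK-N-SH shNC. Control replicate 3 stood above the other controls, and all 3 controls lay above the shL5 libraries. Second line VGF stood at 278, 298 and 261 FPKM in shL5, against 60.2, 62.3 and 53.4 FPKM in shNC. VGF was 7.23-fold lower in SK-N-SH shL5 (log2 fold -2.81, SE 0.15, limma adjusted p = 7.12e-09) and 4.76-fold higher in second line shL5 (log2 fold 2.23, SE 0.15, adjusted p = 5.13e-08).

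PCSK1 encodes prohormone convertase 1/3, which makes the early cuts in precursors such as proinsulin and POMC (ENSG00000175426, chromosome 5, 96390415 to 96434143, minus strand). It had 21, 32 and 31 reads in SK-N-SH shL5, against 0, 4 and 0 reads in SK-N-SH shNC. There were 4, 3 and 3 reads in second line shL5, against 47, 31 and 40 reads in second line shNC. These reads equal 0.314 ± 0.0788 FPKM in SK-N-SH shL5 and 0.0133 ± 0.0230 FPKM in SK-N-SH shNC, and 0.0356 ± 0.00547 FPKM in second line shL5 and 0.438 ± 0.0891 FPKM in second line shNC (SD, n = 3 each). The groups did not overlap in either line, with the same direction as CHGA. The ratio of means was 23.7 in SK-N-SH, with a counting interval of 8.91 to 88.9 and with all control reads in replicate 2. Second line control over knockdown was 12.3 (6.46 to 26.3). With no filter on low values, an alternative chosen after the data were seen, limma gave log2 folds of 0.37 in SK-N-SH (adjusted p = 0.000194) and -0.47 in the second line (adjusted p = 3.18e-05).

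PCSK1N encodes proSAAS, a small granin-like secretory protein that inhibits prohormone convertase 1/3 (ENSG00000102109, chromosome X, 48831094 to 48835633, minus strand). Unlike the convertase gene it was well read in all groups. It had 36.1, 34.5 and 34.9 FPKM in SK-N-SH shL5, against 4.33, 5.08 and 4.99 FPKM in SK-N-SH shNC. Second line levels were 6.23, 9.03 and 8.60 FPKM in shL5, against 47.8, 44.5 and 37.2 FPKM in shNC. No library of a high group came near the low groups. PCSK1N was 7.33-fold higher in SK-N-SH shL5 (log2 fold 2.64, SE 0.12, limma adjusted p = 2.00e-09) and 5.43-fold lower in second line shL5 (log2 fold -2.31, SE 0.12, adjusted p = 6.01e-09).

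The log2 ratio of PCSK1N over PCSK1, with 0.1 FPKM added to both, was 6.43 ± 0.32 in SK-N-SH shL5 and 5.45 ± 0.23 in SK-N-SH shNC (SD, n = 3 each, two-sided exact permutation p = 0.1, the smallest that 3 against 3 libraries allow, adjusted p = 0.12 over 6 ratios). For the second line it was 5.87 ± 0.34 in shL5 and 6.33 ± 0.30 in shNC (n = 3 each, exact permutation p = 0.2, adjusted p = 0.2). PCSK1 and PCSK1N had the same direction in each line. In SK-N-SH shNC and second line shL5 PCSK1 lay below the added 0.1 FPKM, and the direction of the ratio depends on that addition. By mean FPKM without it, PCSK1 changed more than PCSK1N. The folds were 23.7 against 7.33 in SK-N-SH and 12.3 against 5.43 in the second line, with few reads of PCSK1. The ratio of these means was thus lower in SK-N-SH shL5 than in shNC. In second line shL5 it was higher than in shNC.

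PCSK2 encodes prohormone convertase 2, which makes the later cuts in many neuropeptide precursors (ENSG00000125851, chromosome 20, 17226107 to 17484578, plus strand). It had 0 reads in the 9 libraries of SK-N-SH shL5, SK-N-SH shNC and second line shL5, where 3 reads over a group would equal 0.00754 to 0.00836 FPKM. Second line shNC had 4, 1 and 1 reads. SCG5 encodes 7B2, the chaperone that the PCSK2 protein needs to mature (ENSG00000166922, chromosome 15, 32641676 to 32697098, plus strand), and was read throughout. It had 11.0, 11.8 and 11.3 FPKM in SK-N-SH shL5, against 3.52, 5.56 and 3.95 FPKM in SK-N-SH shNC.

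The second line had SCG5 at 3.84, 6.98 and 6.53 FPKM in shL5, against 13.5, 11.7 and 11.2 FPKM in shNC. The groups did not overlap in either line, but the distance was smaller than for the chromogranins. SCG5 was 2.62-fold higher in SK-N-SH shL5 (log2 fold 1.23, SE 0.18, limma adjusted p = 5.49e-05) and 2.10-fold lower in second line shL5 (log2 fold -0.98, SE 0.18, adjusted p = 0.000331). The antisense gene AC123768.1 shares exon sequence with SCG5 and was read at up to 0.483 FPKM. No strand setting of the counting is given in the labels or notes, so reads of both genes cannot be told apart, and the level of SCG5 is uncertain to that extent. Against PCSK2, the log2 ratio of SCG5 differed by 1.39 in SK-N-SH and by -0.88 in the second line (shL5 minus shNC, exact permutation p = 0.1 in each, adjusted p = 0.12). PCSK2 had 0 reads in both SK-N-SH groups and in second line shL5 and averaged 0.0166 FPKM in second line shNC, so this ratio nearly restates the level of SCG5.

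CPE encodes carboxypeptidase E, which removes basic residues after the convertase cut and has been described as a sorting receptor for granule cargo (ENSG00000109472, chromosome 4, 165361194 to 165498320, plus strand). It had 56.7, 57.2 and 59.4 FPKM in SK-N-SH shL5, against 165, 174 and 173 FPKM in SK-N-SH shNC. Second line CPE had 123, 108 and 105 FPKM in shL5, against 70.0, 63.9 and 59.7 FPKM in shNC. CPE was thus well read in all 12 libraries and had the opposite direction to CHGA and CHGB. It was 2.95-fold lower in SK-N-SH shL5 (log2 fold -1.55, SE 0.07, limma adjusted p = 1.65e-09) and 1.74-fold higher in second line shL5 (log2 fold 0.79, SE 0.07, adjusted p = 6.21e-07).

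**Figure D2:**
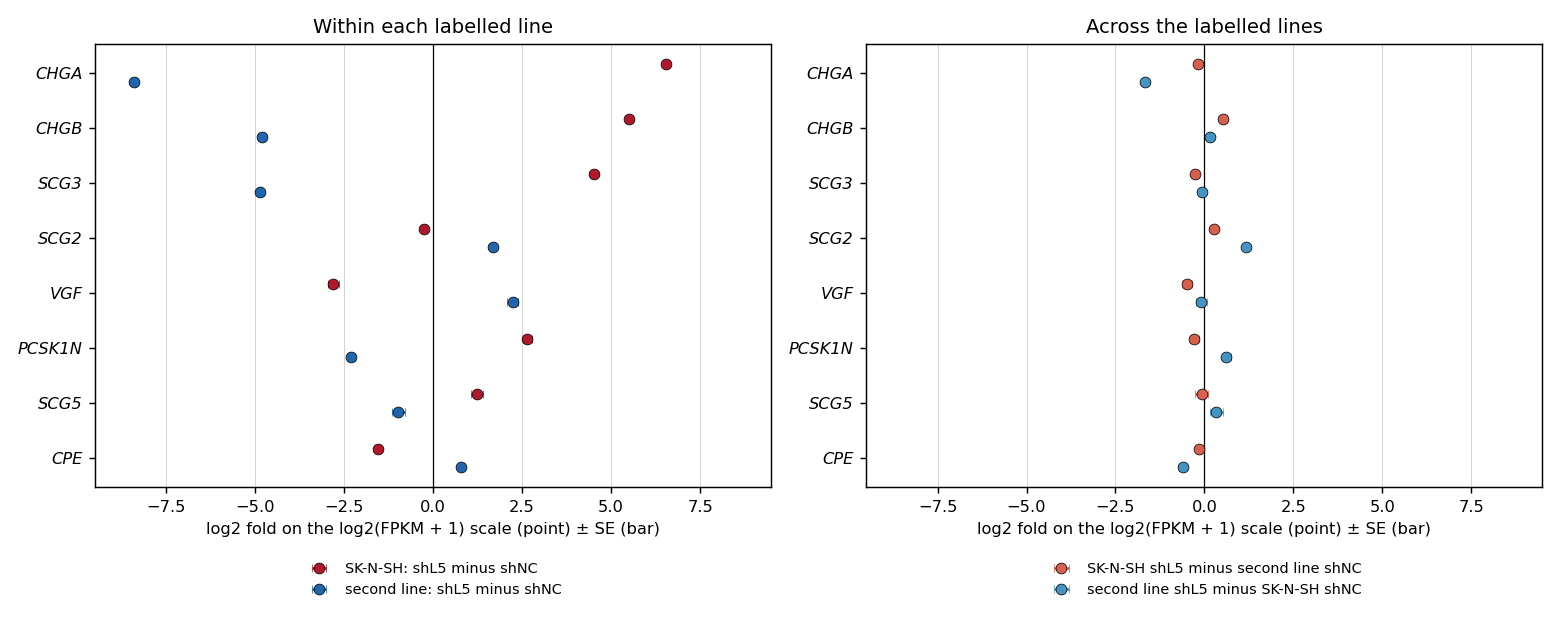
Log2 folds on the log2(FPKM + 1) scale with their SE for the 8 tested genes, within each labelled line (left) and between libraries of different labelled lines (right). On the left every gene has opposite signs in SK-N-SH and the second line, from 6.54 and -8.40 for CHGA to -2.81 and 2.23 for VGF, and on the right CHGA has the largest fold, -1.68, in second line shL5 against SK-N-SH shNC.

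The summed level of the 10 genes changed little while its makeup changed. FPKM is per length, so levels can be added and ranked across genes. The sum was 705 to 758 FPKM in SK-N-SH shL5, against 603 to 770 FPKM in SK-N-SH shNC. The second line had 790 to 876 FPKM in shL5, against 715 to 771 FPKM in shNC. SCG2, VGF and CPE together made up 34.9% to 36.3% of the sum in SK-N-SH shL5 and 97.9% to 98.4% in SK-N-SH shNC. They made up 98.0% to 98.6% in second line shL5 and 33.2% to 34.7% in second line shNC. In bulk RNA, fewer cells of a type and less RNA per cell cannot be told apart.

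**Figure D3:**
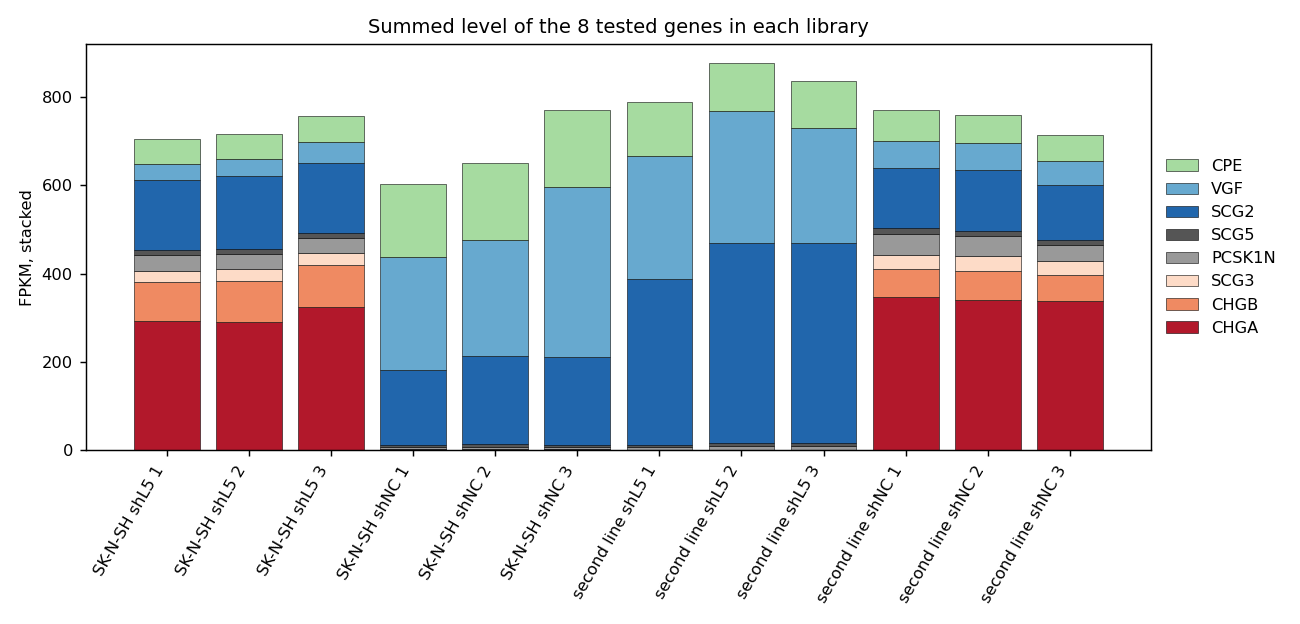
FPKM of the 8 tested genes stacked for each of the 12 libraries, from a baseline of 0. CHGA and CHGB fill most of the bars of SK-N-SH shL5 and second line shNC, and SCG2, VGF and CPE fill nearly all of the bars of SK-N-SH shNC and second line shL5, while the heights stay between 603 and 876 FPKM.

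The order of levels differed between the groups accordingly. In SK-N-SH shL5 it was CHGA, SCG2, CHGB, CPE, VGF, PCSK1N, SCG3, SCG5, PCSK1 and PCSK2, and no neighbours overlapped in their libraries. In SK-N-SH shNC it was VGF, SCG2, CPE, PCSK1N, SCG5, CHGA, CHGB, SCG3, PCSK1 and PCSK2. There SCG2 and CPE overlapped, as did PCSK1N and SCG5, and PCSK1 and PCSK2. In second line shL5 SCG2 led, followed by VGF, CPE, PCSK1N, SCG5, CHGB, SCG3, PCSK1, CHGA and PCSK2. The overlaps there were between PCSK1N and SCG5, PCSK1 and CHGA, and CHGA and PCSK2. In second line shNC it was CHGA, SCG2, CPE, CHGB, VGF, PCSK1N, SCG3, SCG5, PCSK1 and PCSK2, where CPE overlapped CHGB and CHGB overlapped VGF.

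The controls of the lines differed in all 8 tested genes, as in 79.6% of all genes tested. Second line shNC was higher than SK-N-SH shNC in 5, where 40.7% of all genes tested were higher, and lower in 3, where 38.9% were lower. No library of one control overlapped the other in any of the 8, as for 41.4% (higher) and 39.8% (lower) of all genes. This comparison shares its libraries with both knockdown comparisons. CHGA was 149-fold higher in second line shNC (log2 fold 6.72, SE 0.10, limma adjusted p = 9.28e-14), SCG3 151-fold, CHGB 60.3-fold, PCSK1N 8.99-fold and SCG5 2.79-fold. VGF was 5.13-fold lower in second line shNC (log2 fold -2.32, SE 0.15, adjusted p = 3.85e-08), CPE 2.65-fold and SCG2 1.43-fold. The median log2 fold was 2.12 over the 8 genes and 0.02 over all genes.

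SK-N-SH shL5 and second line shNC differed by small folds in the 8 tested genes, and 5.39% of all genes tested were called. Of the 8 tested genes 1 was called higher in SK-N-SH shL5, where 2.26% of all genes tested were, and 1 lower, where 3.12% were. The libraries did not overlap for 7 of the 8, all but SCG5: 2 lay higher in SK-N-SH shL5, as 12.9% of all genes did, and 5 lower, as 14.2% did. CHGB was 1.45-fold higher in SK-N-SH shL5 (log2 fold 0.53, SE 0.10, limma adjusted p = 0.0112), with 88.5 to 93.7 FPKM against 59.2 to 65.1 FPKM in second line shNC. This call was lost at a pseudocount of 0.1 (adjusted p = 0.0978), with FPKM rescaled to a common total (0.0511) and without second line shNC replicate 3 (0.0505), over a range of 9.10e-05 to 0.0978. SCG3 was 1.22-fold lower in SK-N-SH shL5 (log2 fold -0.28, SE 0.07, adjusted p = 0.0326), a call lost under 8 of the alternatives, with adjusted p from 0.00292 to 0.490 over all of them. The count of all genes called, 854, fell to between 474 and 527 when SK-N-SH shL5 replicate 1 or 2, or any second line shNC replicate, was left out. The other 6 genes were not called, with log2 folds of -0.49 for VGF (adjusted p = 0.0875) to 0.27 for SCG2 (adjusted p = 0.106). SCG2 passed with voom on library totals (adjusted p = 0.0454), with the 2 groups fitted alone (0.0496) and without second line shL5 replicate 1 (0.0486). Its range was 0.0454 to 0.284. VGF passed with voom on library totals (0.0292), with protein-coding genes alone (0.0412) and without SK-N-SH shNC replicate 3 (0.0196). Its range was 0.0196 to 0.244.

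Second line shL5 and SK-N-SH shNC differed in CHGA, SCG2, PCSK1N and CPE, while 44.1% of all genes tested were called. Of the 8 tested genes 2 were called higher in second line shL5, where 26.9% of all genes tested were, and 2 lower, where 17.2% were. CHGA, low in both, was lower in second line shL5, with 0.0358, 0.0191 and 0 FPKM against 2.82, 1.74 and 2.31 FPKM in SK-N-SH shNC (log2 fold -1.68, SE 0.10, limma adjusted p = 8.08e-07). Its ratio, SK-N-SH shNC over second line shL5, was 125 with a counting interval of 42.5 to 610, and 240.1 without second line shL5 replicate 1. SCG2 was 2.25-fold higher in second line shL5 (log2 fold 1.16, SE 0.08, adjusted p = 4.13e-06) and PCSK1N 1.66-fold higher (log2 fold 0.61, SE 0.12, adjusted p = 0.00188). CPE was 1.52-fold lower (log2 fold -0.60, SE 0.07, adjusted p = 6.52e-05). CHGB, SCG3, SCG5 and VGF overlapped between these groups and did not pass. Without second line shL5 replicate 1, CHGB (log2 fold 0.27, adjusted p = 0.0173, range 0.0173 to 0.835) and SCG5 (0.56, adjusted p = 0.00763, range 0.00763 to 0.456) passed as well. Of all calls in this comparison 60.9% were higher in second line shL5, and 44.7% with voom on library totals, 52.0% with quantile normalization and 39.0% with FPKM rescaled to a common total.

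For each of the 8 tested genes, the 3 other tested genes with the highest Pearson's r of log2(FPKM + 1) over the 12 libraries describe which genes had a like pattern. For CHGA they were MAML3, ARRB1 and ANKRD44 (r = 0.999 for each), for CHGB CHKA, TMEM121B and HTATIP2 (0.999 each), and for SCG3 PHYHIPL, NEFM and NRCAM (0.9998, 0.9997 and 0.9997). PCSK1N was nearest to MCC, MLLT11 and RAB3A (0.997 each) and SCG5 to KCTD20, SLC7A5 and ARHGAP31 (0.984 to 0.987). The set lower in SK-N-SH shL5 and higher in second line shL5 had other neighbours. These were RNF7, DNAJC3 and CELSR1 for SCG2 (0.986 to 0.988) and RGL1, NTSR1 and SERPINB9 for CPE (0.993 to 0.995). For VGF they were PLEKHG4, RUSC1 and NBL1 (0.993 to 0.994). The 12 points fall into the 4 groups and are not 12 separate conditions.

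Other enzymes that process peptides were mostly lower in SK-N-SH shL5 and higher in second line shL5. Of 32 listed genes 23 were tested. In SK-N-SH 4 were higher, 18 lower and 1 not called, with a median log2 fold of -1.37 beside 0.02 over all genes. In the second line 19 were higher and 4 lower, with a median of 1.20 beside -0.02. Of all genes tested, 40.7% were higher and 39.0% lower in SK-N-SH shL5, and 39.9% were higher and 40.2% lower in second line shL5. PAM, the enzyme that amidates the C-terminus of many neuropeptides, had 13.3 ± 0.117 FPKM in SK-N-SH shL5 and 117 ± 4.83 FPKM in SK-N-SH shNC, and 117 ± 1.49 FPKM in second line shL5 and 11.1 ± 0.505 FPKM in second line shNC (SD, n = 3 each). The changes were 8.77-fold lower and 10.5-fold higher (limma adjusted p = 1.10e-13 and 5.49e-14).

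FURIN, the convertase of the constitutive secretory pathway, had 6.05 ± 0.259 FPKM in SK-N-SH shL5 and 26.4 ± 1.39 FPKM in SK-N-SH shNC, and 44.9 ± 5.25 FPKM in second line shL5 and 6.005 ± 0.547 FPKM in second line shNC. Its direction was opposite to that of PCSK1 in both lines. MME, or neprilysin, which degrades neuropeptides at the cell surface, had 0.0871 ± 0.0294 FPKM in SK-N-SH shL5 and 56.3 ± 10.4 FPKM in SK-N-SH shNC, and 14.9 ± 2.90 FPKM in second line shL5 and 0.0490 ± 0.0156 FPKM in second line shNC. AEBP1, whose product is related to carboxypeptidases, was 11.8-fold lower in SK-N-SH shL5 and 4.62-fold higher in second line shL5. The genes that ran the other way included the oligopeptidase genes PREP (2.27-fold higher in SK-N-SH shL5, 1.71-fold lower in second line shL5) and THOP1 (1.77-fold higher, 1.28-fold lower). The others were PREPL (1.78-fold higher, 1.73-fold lower) and the carboxypeptidase-like gene CPXM1 (1.63-fold higher, 2.09-fold lower).

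**Figure D4:**
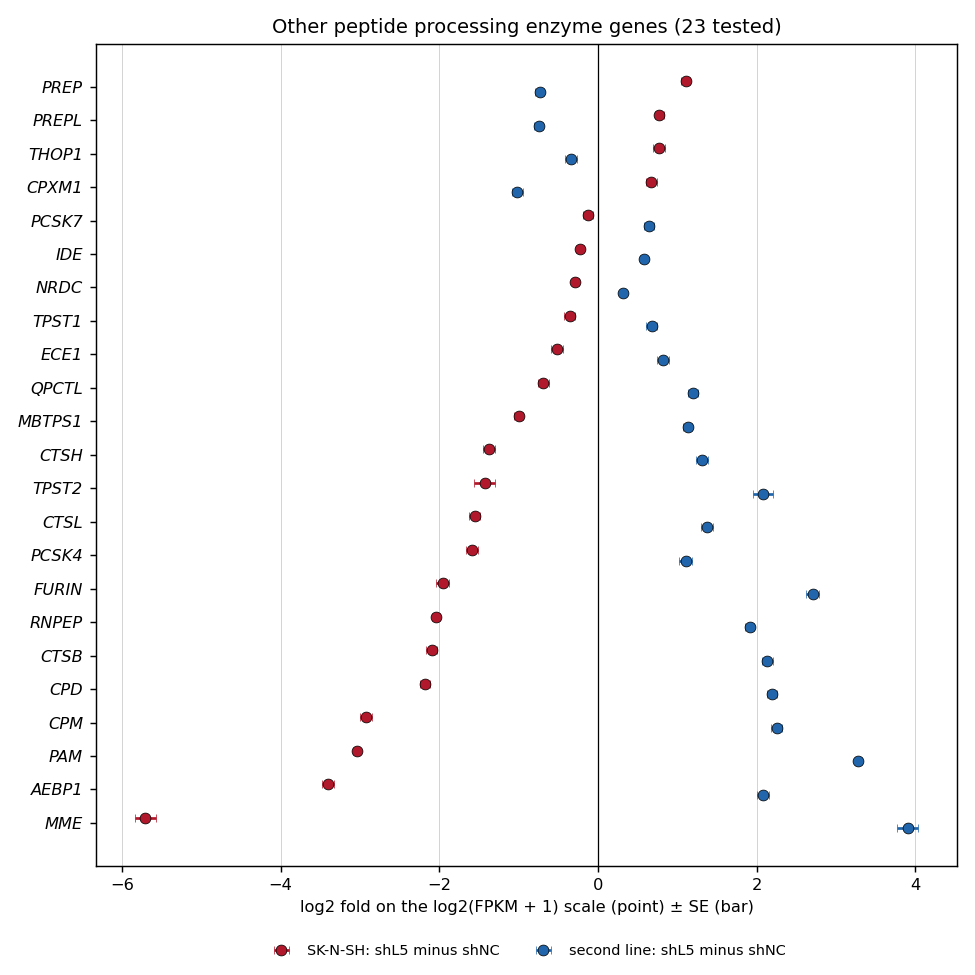
Log2 folds on the log2(FPKM + 1) scale with their SE for the 23 tested genes of other peptide processing enzymes, in SK-N-SH and in the second line. PREP, PREPL, THOP1 and CPXM1 lie right of 0 in SK-N-SH and left of 0 in the second line, and the other 19 genes lie on the opposite sides in each line.

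Genes of granule formation, sorting and release were called in both directions. Of 58 tested genes of this list, 28 were higher and 24 lower in SK-N-SH shL5, with a median log2 fold of 0.12 beside 0.02 over all genes. In second line shL5 21 were higher and 30 lower, with a median of -0.21 beside -0.02. Of all genes tested 40.7% were higher and 39.0% lower in SK-N-SH shL5, and 39.9% and 40.2% in second line shL5. ICA1, which encodes a protein of granule maturation, had 43.3 ± 0.692 FPKM in SK-N-SH shL5 and 0.229 ± 0.0730 FPKM in SK-N-SH shNC, and 0.0657 ± 0.0346 FPKM in second line shL5 and 48.4 ± 1.51 FPKM in second line shNC. SYT4, a synaptotagmin of dense-core vesicles, had 27.3 ± 0.564 FPKM in SK-N-SH shL5 and 0.148 ± 0.0250 FPKM in SK-N-SH shNC, and 0.00417 ± 0.00722 FPKM in second line shL5 and 33.1 ± 0.341 FPKM in second line shNC. KIF1A, the motor that carries dense-core vesicles along axons, had 22.5 ± 0.650 FPKM in SK-N-SH shL5 and 0.0468 ± 0.0101 FPKM in SK-N-SH shNC, and 0.00111 ± 0.00193 FPKM in second line shL5 and 29.2 ± 1.18 FPKM in second line shNC. Among genes with the opposite direction, the vesicle GTPase gene RAB3B was 14.8-fold lower in SK-N-SH shL5 and 26.9-fold higher in second line shL5. NUCB1, which encodes a calcium-binding protein of the Golgi, was 4.87-fold lower and 5.04-fold higher, and the GTPase gene RAB26 8.50-fold lower and 8.90-fold higher.

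Of 71 listed genes of prohormones and secreted peptides, 20 were tested and 13 had 0 reads in all libraries. In SK-N-SH shL5 10 were higher and 6 lower, with a median log2 fold of 0.56 beside 0.02 over all genes. In second line shL5 5 were higher and 10 lower, with a median of -0.34 beside -0.02. Over all genes tested the shares were 40.7% higher and 39.0% lower in SK-N-SH shL5, and 39.9% higher and 40.2% lower in second line shL5. GAL, the galanin precursor, was 615-fold higher in SK-N-SH shL5 (168 ± 14.7 FPKM, against 0.274 ± 0.0482 FPKM in shNC), and stood at 0.0294 ± 0.0255 FPKM in second line shL5 and 207 ± 7.32 FPKM in shNC. NMU, the neuromedin U precursor, had 26.1 ± 1.94 FPKM in SK-N-SH shL5 and 0.110 ± 0.0952 FPKM in SK-N-SH shNC, and 0.0584 ± 0.0573 FPKM in second line shL5 and 34.8 ± 4.17 FPKM in second line shNC. EDN3, the endothelin 3 precursor, had 23.1 ± 1.54 FPKM in SK-N-SH shL5 and 0 reads in SK-N-SH shNC. It had 0 reads in second line shL5 and 13.4 ± 0.383 FPKM in second line shNC. By a floor of 3 reads over the group it was at least 1182-fold higher in SK-N-SH shL5 and at least 644-fold lower in second line shL5.

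The precursor genes BDNF and NTS had the directions of VGF in both lines. BDNF, which encodes a neurotrophin, was 3.55-fold lower in SK-N-SH shL5 and 7.60-fold higher in second line shL5. NTS, the neurotensin precursor, had 0.138 ± 0.0520 FPKM in SK-N-SH shL5 and 1.92 ± 1.29 FPKM in SK-N-SH shNC, and 3.75 ± 1.55 FPKM in second line shL5 and 0.177 ± 0.114 FPKM in second line shNC. GRP, the precursor of gastrin-releasing peptide, had 0 reads in SK-N-SH shL5 and 3.79 ± 0.917 FPKM in SK-N-SH shNC, at least 54.5-fold lower in SK-N-SH shL5, and 0 reads in both second line groups. STC1, which encodes the hormone stanniocalcin 1, was higher in shL5 in both lines, 6.27-fold in SK-N-SH (0.511 ± 0.0630 FPKM, against 0.0814 ± 0.0453 FPKM in shNC) and 13.8-fold in the second line (8.40 ± 2.79 FPKM, against 0.609 ± 0.0652 FPKM in shNC).

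Summed levels of markers of neuroblastoma cell state also differed between shL5 and shNC in both lines, and their part in the results was not tested. The noradrenergic sum had the directions of CHGA, CHGB, SCG3, SCG5 and PCSK1N. The mesenchymal sum had those of SCG2, CPE and VGF, though the fall of SCG2 in SK-N-SH was small. The summed level of 8 noradrenergic markers was 869 to 925 FPKM in SK-N-SH shL5 and 81.3 to 93.9 FPKM in SK-N-SH shNC, and 66.3 to 82.9 FPKM in second line shL5 and 974 to 1009 FPKM in second line shNC. TH, the enzyme that defines catecholamine-making cells, had 0 reads in SK-N-SH shNC and in second line shL5. The sum of 10 mesenchymal markers was 118 to 125 FPKM in SK-N-SH shL5 and 960 to 1036 FPKM in SK-N-SH shNC, and 909 to 1093 FPKM in second line shL5 and 103 to 108 FPKM in second line shNC. Not all of them followed the sum in SK-N-SH. FOSL2 overlapped there, with 7.92 to 8.20 FPKM in shL5 and 6.60 to 9.30 FPKM in shNC. SNAI2 overlapped as well, with 2.47 to 2.97 FPKM in shL5 and 2.33 to 3.57 FPKM in shNC. Both were higher in second line shL5 than in second line shNC. The 5 epithelial markers summed to 0.957 to 1.29 FPKM in SK-N-SH shL5 and 19.8 to 25.2 FPKM in SK-N-SH shNC, and to 23.9 to 29.6 FPKM in second line shL5 and 0.982 to 1.78 FPKM in second line shNC. KRT8 and KRT18 made up most of the sum in SK-N-SH shNC and second line shL5. EPCAM had 0.676 to 0.753 FPKM in SK-N-SH shL5 and 0.192 to 0.404 FPKM in SK-N-SH shNC, and 0.177 to 0.529 FPKM in second line shL5 and 0.674 to 0.952 FPKM in second line shNC, and CDH1 had at most 0.0181 FPKM in any library. The 5 Schwann cell markers summed to at most 2.31 FPKM in any library. The 4 markers of blood and endothelium summed to 1.15 to 1.32 FPKM in SK-N-SH shL5 and 0.107 to 0.157 FPKM in SK-N-SH shNC, and to 0.0520 to 0.128 FPKM in second line shL5 and 0.648 to 0.857 FPKM in second line shNC, mostly as PTPRC in the higher groups. The 8 markers of endocrine cells of pancreas and pituitary, which also store peptides in granules, summed to 1.77 to 2.12 FPKM in SK-N-SH shL5 and 0 FPKM in SK-N-SH shNC, and to 0 to 0.0192 FPKM in second line shL5 and 2.05 to 2.51 FPKM in second line shNC.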

How the data were processed

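Per the labels' protocols, 3 µg of RNA per library went into a NEBNext Ultra kit. HISAT2 2.0.5 and featureCounts 1.5.0-p3 are named in the submitters' processing notes, with the build mm10. All 58735 genes are human, and their starts and ends equal those of GENCODE 29 on GRCh38, which is used here. The authors deposited FPKM per gene and library. FPKM times length gave whole reads for 100% of values (tolerance 0.05), and the authors' scaling was proportional to median-of-ratios size factors (ratio 1), not to totals (0.913 to 1.06). Levels are relative to that scaling.

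Groups came from sample titles, and 0 columns belonged to no sample. One group-means model over 12 libraries was fitted with limma 3.58.1 (R 4.3.3, intensity trend) to log2(FPKM + 1) for genes with a mean of at least 0.5 FPKM, two-sided, with Benjamini-Hochberg adjustment within each comparison. This scale understates folds of low genes, so a fold not called a log2 fold is a ratio of mean FPKM. The script was tested on simulated data. The 10 genes and all lists were chosen with earlier results of these data known. Besides these 10, TSPYL5 and MYCN, the text could name up to 4 genes per list, direction and knockdown comparison with the largest log2 fold among those called. Some results under this rule are left out of the text. Promoter sequences are RefSeq's. Alternatives are given at the end.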

Additional observations from a re-analysis of the deposited data

Results flagged for a closer look

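The effect of the knockdown label differed between the lines, by limma's test of that difference (second line minus SK-N-SH, log2 scale, Benjamini-Hochberg adjusted), for all 8 tested granin and processing genes. The same test passed for 84.9% of all genes tested (41.8% positive, 43.1% negative), so passing it does not set these genes apart. TSPYL5 itself differed by -1.34 and MYCN by -19.97, so these differences follow labels that the target gene contradicts in SK-N-SH. The differences were -14.94 for CHGA (adjusted p = 9.77e-16), -10.32 for CHGB, -9.37 for SCG3, -4.95 for PCSK1N and -2.21 for SCG5 (adjusted p = 5.44e-06). They were 5.04 for VGF, 2.33 for CPE and 1.93 for SCG2 (adjusted p = 1.80e-08). PCSK1 differed by -0.85 in the fit with no filter on low values (adjusted p = 3.53e-06).

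Among other processing enzymes the difference was 9.61 for MME, 6.32 for PAM, 5.48 for AEBP1 and 4.67 for FURIN, and -1.84 for PREP, -1.69 for CPXM1, -1.52 for PREPL and -1.11 for THOP1. Among granule and sorting genes it was -10.71 for ICA1, -9.71 for SYT4 and -9.40 for KIF1A, and 5.89 for RAB3B, 4.46 for NUCB1 and 4.45 for RAB26. Among prohormone genes it was -14.71 for GAL, -9.69 for NMU and -8.43 for EDN3, and 3.19 for NTS, 3.11 for BDNF, 2.24 for GRP and 2.02 for STC1. STC1 was higher in shL5 in both lines, and GRP was read in SK-N-SH shNC alone, so for these genes the difference does not come from opposite directions.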

How the results depend on the processing

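Of 1048 log2 folds of the tested genes under alternatives (pseudocounts of 0.1 and 5, no filter and a minimum mean of 2 FPKM, voom, quantile normalization, rescaling, protein-coding genes alone, groups fitted alone, a replicate block, each library left out), 1024 kept direction and call, 14 lost the call, 8 gained one and 2 changed sign, none of the last called. These 2 were in second line shL5 against SK-N-SH shNC: SCG3 at 0.011 with quantile normalization and VGF at 0.11 without SK-N-SH shNC replicate 3 (-0.19 to 0.11 with each library left out). In both knockdown comparisons the only calls lost were those of SCG2 in SK-N-SH. For SK-N-SH shL5 against second line shNC, genes of the set called higher numbered 0 at pseudocount 0.1 or rescaled and 2 with voom or groups fitted alone. Those called lower numbered 0 at pseudocount 0.1, rescaled or unfiltered and 2 with voom or protein-coding genes. With 1 library left out, all genes called there numbered 474 to 991, set members higher 0 to 2 and lower 0 to 2. For second line shL5 against SK-N-SH shNC, members higher then numbered 2 to 4. Voom on totals moved the median log2 fold of all genes by -0.17 and rescaling by -0.12 in the second line, by -0.24 and -0.11 in the difference between lines, and rescaling by -0.10 in second line shL5 against SK-N-SH shNC. Same-numbered libraries did not deviate together (correlations -0.0751 to 0.102, 1 of 18 above 0.1), and 0 of 12 libraries correlated best with its own number in every other group. The replicate block left 12569 genes called in SK-N-SH, 12619 in the second line and 692 between SK-N-SH shL5 and second line shNC, and left the counts of set members as they were. The cause of these changes was not tested. Depth limits PCSK1, PCSK2 and, in second line shL5, CHGA, which rest on few reads. The low groups of other genes with large folds are limited as well. SCG3 had 7, 13 and 20 reads in SK-N-SH shNC and 9, 9 and 8 reads in second line shL5. Within second line shL5, SYT4 was read in replicate 1 alone (0.0125 FPKM) and KIF1A in replicate 3 alone (0.00334 FPKM).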
